A study of Mus musculus with 2 samples.

Results

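The genes described here were 10 transcriptional repressors: the 3 Hes genes Hes1, Hes5 and Hes6, the 3 Hey genes Hey1, Hey2 and Heyl, and the 4 Id genes Id1, Id2, Id3 and Id4. They were chosen by name, as members of related gene families, and all 10 had counts in both the brain and the lung, out of 25814 genes counted in either. The study asked whether cells with the properties of neural stem cells (NSCs) exist outside the central nervous system, and as one step it profiled single cells that carried a Nestin-GFP reporter (Nes-GFP+ cells). The cells were sorted by flow cytometry from trypsin-dissociated brain and lung of mice aged about 6 weeks, and each tissue gave 1 library. Both libraries came from mice carrying the same transgene, GFP under regulatory elements of Nestin, an intermediate filament gene used by neural progenitors and also by vessel wall and other cells, so the values describe reporter-positive cells and not the whole tissue. C57BL/6 is the strain named in the labels, whereas the methods describe wild-type stock of CD1 or mixed CD1 and C3H background. Each library was 1 biological replicate, and whether it pooled several mice is not given in the sources used here. There was no GFP-negative library and no treatment.

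Hes and Hey proteins are basic helix-loop-helix (bHLH) repressors. Many of their genes are switched on when the intracellular part of a Notch receptor, released by a ligand on a neighbouring cell, joins the DNA-binding protein RBPJ, and Hes proteins then repress proneural genes and so hold neural progenitors back from differentiation. Hes6 is an exception, since its product antagonises Hes1. Hey1, Hey2 and Heyl are best known from arteries, the heart and the mural cells around vessels. Id proteins have the helix-loop-helix but no basic region, cannot bind DNA, and act by trapping E proteins such as Tcf3, Tcf4 and Tcf12, the partners that tissue-specific bHLH activators need. Id1 and Id3 are classic targets of bone morphogenetic protein (BMP) receptors and their Smad proteins, in endothelium above all through Acvrl1.

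Hes5 was lower and Hes6 higher in activated than in quiescent neural stem cells, so the 250 bases just upstream of their start sites are shown here, 5′ to 3′ on the gene's own strand, as RefSeq gives them for GRCm38.p6. Capitals mark GTGGGAA on either strand, the core to which RBPJ binds, and CANNTG, the E-box core to which bHLH dimers bind. The Hes5 window is chr4:154960673-154960922 on the plus strand and the Hes6 window shown is chr1:91414039-91414288 on the minus strand.
Hes5: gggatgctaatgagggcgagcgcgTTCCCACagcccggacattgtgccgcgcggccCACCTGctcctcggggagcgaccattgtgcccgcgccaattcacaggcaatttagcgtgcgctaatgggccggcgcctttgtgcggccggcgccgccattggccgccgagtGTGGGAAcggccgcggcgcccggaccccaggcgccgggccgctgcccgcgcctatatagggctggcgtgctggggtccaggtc
Hes6: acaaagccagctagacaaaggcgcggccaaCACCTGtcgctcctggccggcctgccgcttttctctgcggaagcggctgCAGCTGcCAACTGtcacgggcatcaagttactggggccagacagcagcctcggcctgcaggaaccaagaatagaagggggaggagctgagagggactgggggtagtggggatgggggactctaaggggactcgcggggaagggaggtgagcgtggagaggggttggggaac
The Hes5 window held GTGGGAA at 2 places, with first bases at -226 and -83 from the start site, and 1 E-box core. The printed Hes6 window held no GTGGGAA and 3 E-box cores, and a window before a second RefSeq start site of Hes6, chr1:91413223-91413472, held no GTGGGAA and 1 E-box core. Among 32851 windows of this length before mouse start sites, 5.42% held GTGGGAA and 66.2% held CANNTG. RefSeq windows matched 6 of the 10 genes. Hey2 held 1 GTGGGAA and 1 E-box core, Id2 held 1 E-box core, and Id3 and Id4 held neither. These matches are letters in a window and were not measured as binding.

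In GRCm38 Hes1 covers chr16:30064384-30067796, Hes5 chr4:154960923-154962371 and Hes6 chr1:91411483-91414038. Hey1 covers chr3:8663359-8667256, Hey2 chr10:30832359-30842801 and Heyl chr4:123233556-123249875. Id1 covers chr2:152736251-152737410, Id2 chr12:25093799-25097140, Id3 chr4:136143497-136145755 and Id4 chr13:48261228-48266026. Hes5 overlaps the noncoding Gm20421 on the other strand, and Id4 overlaps A330033J07Rik and Gm49291 on the other strand. Whether the counting used strand is not given in the sources used here, so reads of these 2 genes and of their antisense partners cannot be told apart. The other 8 genes overlapped no annotated gene. The RefSeq windows of Id2 and Id3 and the second window of Hes6 lie inside these spans.

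The brain library held 4151 cells after filtering, with a median of 4209 transcripts (unique molecular identifiers, UMIs) per cell, and the lung library 5608 cells with a median of 5585. Cells were assigned to classes by gates: a cell entered a class when at least 50% of the class's marker genes had a UMI and when that share led the next class by 20 percentage points or more, with thresholds set after the data were seen. Gate names below mean cells like the named type (qNSC for quiescent and aNSC for activated NSC, OPC for oligodendrocyte progenitor, mOL for mature oligodendrocyte). None of the 10 genes was a marker. The gates left out 465 cells of the brain (11.2%) and 2059 of the lung (36.7%), 15 barcodes were shared by both libraries, and 44 brain and 74 lung cells were called doublets and kept. A level is the gene's summed UMI count per 1000000 UMIs of a gate (CPM), and the parentheses after levels and ratios hold exact 95% intervals. With 1 library a tissue there was no test of any difference: the intervals cover counting error only, and neither the spread between mice nor that between libraries could be measured. A gene was called higher or lower in a comparison when its CPM ratio was at least 2-fold, its interval left out 1, and at least one side had more than 3 UMIs. Levels are compared between classes and not between genes.

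**Figure D1:**
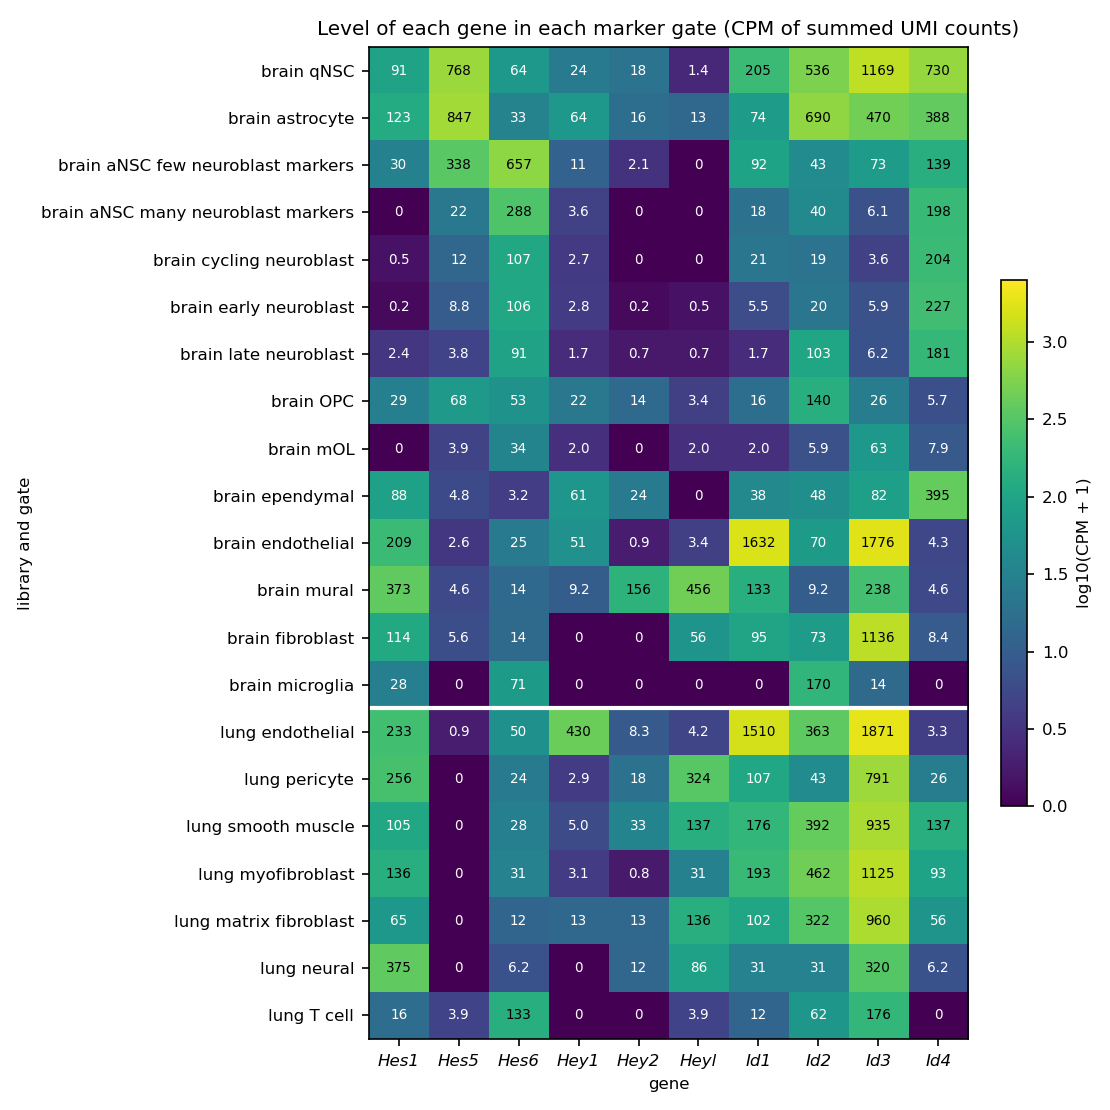
Level of each of the 10 genes (columns) in 21 marker gates that share no cells (rows, 14 of the brain library above the white line and 7 of the lung library below it), printed as CPM and coloured by log10(CPM + 1). Hes5 is brightest in the astrocyte and qNSC rows (847 and 768 CPM), Id1 and Id3 are brightest in both endothelial rows, and Heyl is brightest in the mural and pericyte rows.

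Across the 21 gates, 61 pairs of a gene and a gate reached 100 CPM, and every gene reached it in at least 1 gate, as the heat map of levels shows. Id3 reached it in the most gates, 12, and Hey1 and Hey2 in 1 each, the lung endothelial and the brain mural gate. Each gene's 21 levels were placed in order and each level compared with the next one down. Of the 20 neighbour pairs a gene, between 12 (Id3) and 19 (Hey2) did not differ beyond their counting intervals, so the orders hold as groups of gates and not as ranks. The cells outside every gate entered no comparison. Among their levels were Id3 at 906 CPM, Id2 at 266 CPM and Id1 at 171 CPM in the lung, and Id3 at 262 CPM, Id2 at 143 CPM and Id4 at 132 CPM in the brain.

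The 3 Hes genes each had a pattern of their own. Hes5, the Notch target that marks neural stem and astroglial cells, gave 3102 UMIs in all cells of the brain library and 5 in those of the lung library. Its level was 847 CPM (799.9 to 896) in the astrocyte gate and 768 CPM (705 to 836) in the qNSC gate, which did not differ beyond counting error. Next came the aNSC cells with few neuroblast markers at 338 CPM (287 to 395), then the OPC gate at 67.6 CPM (51.4 to 87.2). The whole astroglial gate, which holds the qNSC, the astrocyte and 293 further cells, held 85.1% of the library's Hes5 UMIs. In 5 of the 7 lung gates Hes5 had no UMI, among them the 29 cells of the lung neural gate, where 3 UMIs would have been 18.5 CPM.

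Hes1, a Notch target of many tissues that also answers other signals, was instead highest in the lung neural gate and in the vessel wall. Its level was 375 CPM (287 to 482) in the lung neural gate and 373 CPM (318 to 435) in the brain mural gate, followed by 256 CPM (247 to 266) in lung pericytes, 233 CPM (217 to 249.5) in lung endothelium and 209 CPM (183 to 237) in brain endothelium. The first pair did not differ beyond counting error, and neither did the endothelial pair. In the astroglial subsets Hes1 stood at 123 CPM (106 to 142) in astrocytes and 91.0 CPM (70.1 to 116) in qNSCs. In all 1878 cells of the neuroblast gate it had 9 UMIs.

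Hes6 had another order. It was highest in aNSCs, with 657 CPM (586 to 735) in those with few neuroblast markers and 288 CPM (252 to 327) in those with many. Below them stood lung T cells at 133 CPM (91.8 to 185) and the 3 neuroblast gates, between 90.6 and 107 CPM. The qNSC level was 64.0 CPM (46.7 to 85.6). With Seurat clusters cycling neuroblasts stood at 179 CPM, above the T cells at 88.2 CPM, so the order of these classes was not fixed. Hes6, Id2 and Id3 were the 3 genes with a UMI in every one of the 21 gates.

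**Figure D2:**
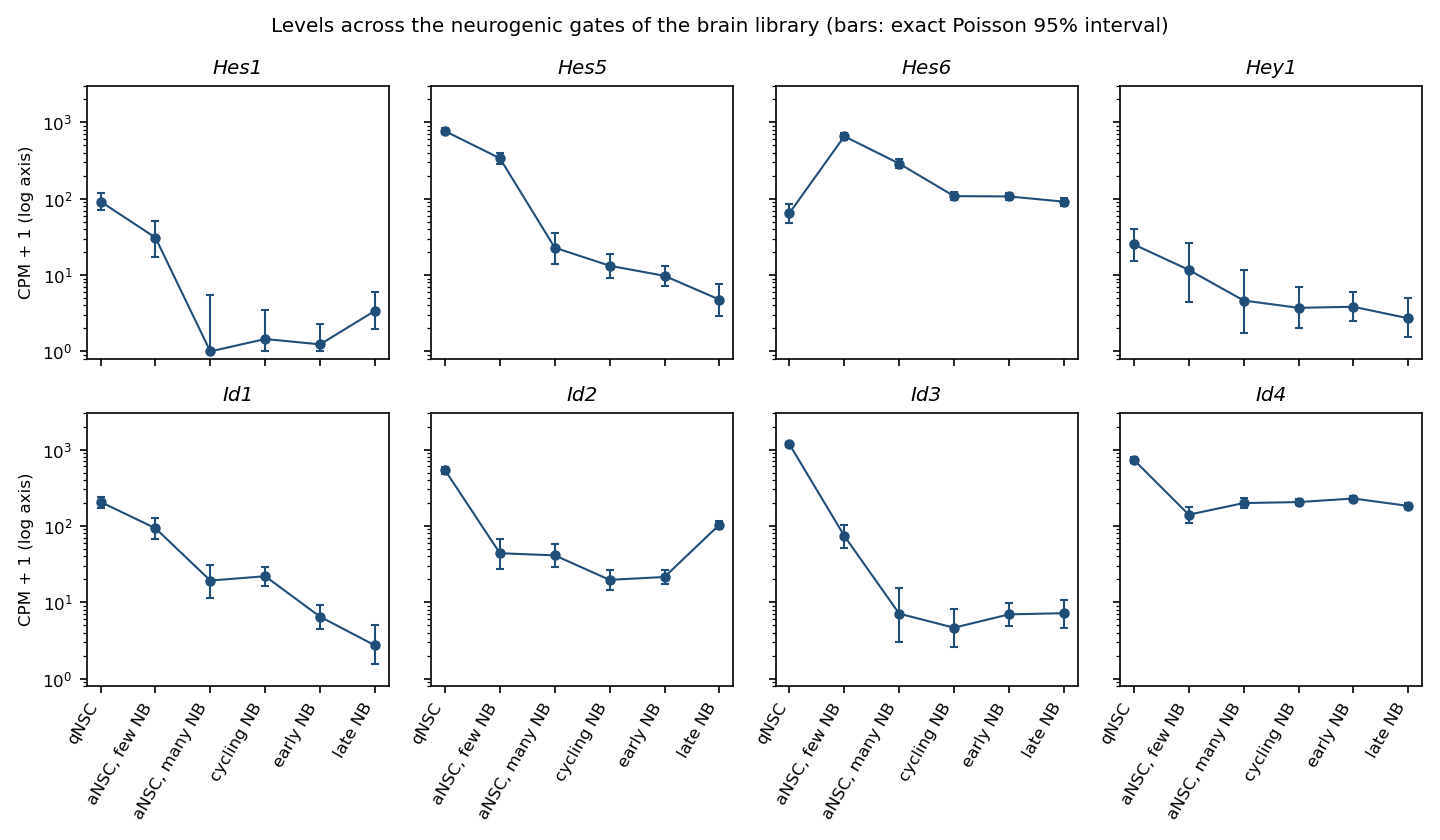
Levels of 8 of the genes (CPM + 1, log axis) along the 6 neurogenic gates of the brain library, from qNSC through aNSC with few or many neuroblast (NB) markers to cycling, early and late neuroblasts; points are gate levels, bars exact Poisson 95% intervals, and the lines only join the points. Hes5 falls from 768 to 3.77 CPM along the row, Hes6 peaks at 657 CPM in the first aNSC gate, and Id4 stays between 139 and 227 CPM after qNSC.

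The aNSC gate was compared with the qNSC gate (145 and 176 cells). Of the aNSCs 91 had at least 50% of the neuroblast markers and 87 had at least 50% of a list of cycling genes. The pooled ratios below describe this mix. In the 54 aNSCs with few neuroblast markers Hes5 was 338, Hes1 30.0, Id3 72.8 and Id4 139 CPM, each below its qNSC level. For Hes5 the qNSC level was 2.27 (1.90 to 2.73) times that of these 54 cells. aNSCs needed Egfr and at least 50% of a set of replication genes, and they were deeper, with median UMI counts of 8958 against 3942 a cell. Of the 10 genes, 1 was higher and 8 were lower, where 12.8% of all genes with a count were called higher and 15.0% lower. Hes6 went from 64.0 to 421 CPM (387 to 458) and was 6.59-fold (4.85 to 9.14) higher. Hes5 went from 768 to 136 CPM (117 to 158) and was 5.63-fold lower (4.74 to 6.71), and Hes1 went from 91.0 to 10.8 CPM (5.93 to 18.2) and was 8.39-fold lower (4.66 to 16.2). The 2 classical Hes effectors and their antagonist thus lay on opposite sides of 1.

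All 4 Id genes were lower in aNSCs, by unequal amounts. Id3 had the widest gap, from 1169 CPM (1090.4 to 1252) to 30.2 CPM (21.5 to 41.3), 38.7-fold lower (28.1 to 54.8). Id2 went from 536 CPM (483 to 593) to 41.1 CPM (30.8 to 53.7) and was 13.1-fold lower (9.77 to 17.8). Id1 and Id4 differed least of the 4: Id1 was 4.56-fold lower (3.34 to 6.29), from 205 to 44.9 CPM, and Id4 was 4.13-fold lower (3.53 to 4.85), from 729.5 to 177 CPM. Hey1 was 3.90-fold lower (1.6 to 10.4) and Hey2 23.9-fold lower (3.58 to 1014), both from low qNSC levels of 24.2 and 18.5 CPM, and Heyl had 3 or fewer UMIs in both gates. When the classes came from Seurat clusters, the ratio was 2.62 for Hes6, 0.0680 for Hes5, 0.0424 for Hes1, 0.114 for Id1, 0.0116 for Id3 and 0.143 for Hey1, and Heyl was called lower at 0.0890. The aNSCs were then 2 clusters of 481 cells, both matching the set with many neuroblast markers described next. With 1 more marker asked of every gate the call of Hey1 was lost and the ratio was 0.0483 for Id2 and 0.202 for Hes1, and Id1 stood at 0.333 without the upper limit on genes per cell.

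Genes for the E proteins that Id proteins trap and for the Notch and BMP pathways were compared in the same way. Of the 3 E proteins 2 were higher in aNSCs and none lower, with Tcf3 at 2.31 (1.69 to 3.20) and Tcf12 at 2.03 (1.54 to 2.71) times its qNSC level. Scaling by median-of-ratios size factors moves the log2 ratios of this comparison by -0.30, which takes both under 2-fold. Olig2, a bHLH factor of the oligodendrocyte lineage, was higher in aNSCs, at 62.1 (10.9 to 2474) times its qNSC level. Of the 7 Notch ligands 3 were higher and 2 lower, with Dll1 at 6.08 (2.65 to 17.2) times the qNSC level, and of the 4 Notch receptors 2 were lower, Notch2 at 8.59-fold lower (6.18 to 12.2) and Notch3 at 23.9-fold lower (3.58 to 1014). Of the 6 BMP receptors measured only Bmpr1b was called, 9.18-fold lower (4.89 to 18.7), and of the 6 Smads only Smad9, 11.0-fold lower (1.34 to 507). The median log2 ratio was -2.49 over the 9 Hes, Hey and Id genes with more than 3 UMIs in a gate, 1.02 over the E proteins and 0.07 over all genes.

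The aNSC gate was itself not uniform. The 54 cells with fewer than 50% of the neuroblast markers had 5 of the 10 genes higher than the 91 cells with more, and none lower, where 4.74% of all genes were called higher and 3.07% lower. Hes5 stood at 338 CPM (287 to 395) against 21.9 CPM (13.0 to 34.5), 15.5-fold (9.48 to 26.8). Hes1 had 14 UMIs in the first set and none in the second, 8.22-fold higher when the second is set at 3 UMIs (exact lower limit 5.85). Both of these Hes genes were thus higher in the gated aNSCs with few neuroblast markers, although the 2 aNSC clusters, which match the set with many, had Hes5 at 55.7 and Hes1 at 4.41 CPM. Hes6 was present in both sets and 2.28-fold (1.92 to 2.72) higher in the set with few neuroblast markers. Id1 was 92.0 CPM (66.6 to 124) against 18.2 CPM (10.2 to 30.0), 5.05-fold (2.75 to 9.79), and Id3 was 72.8 CPM (50.4 to 102) against 6.07 CPM (1.97 to 14.2), 12-fold (4.66 to 39.3). Id2 and Id4 did not pass the rule, at 1.07 (0.581 to 1.92) and 0.703 (0.519 to 0.942) times, nor did Hey1, with 5 UMIs against 3, while Hey2 had 1 against 0 and Heyl none. Without the upper limit on genes per cell the Id3 ratio was 1.84 and no longer called, Hey1 was called higher at 5.02, and the ratios of Hes5, Id1 and Hes1 were 9.72, 3.32 and 15.1. Of the 54 cells 59.3% lay within 10 percentage points of a gate threshold, and of the 91 cells 24.2%.

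Neuroblasts, which are young neurons, had lower levels of nearly the whole set. They came from dissociated brain, and their region of origin is not known here. Of the 10 genes 8 were lower in the 1878 neuroblasts than in qNSCs and none was higher, where 15.6% of all genes were called lower and 11.7% higher. Id3 was 5.46 CPM (4.07 to 7.18) and 214-fold lower (161 to 289.7). Hes5 was 8.04 CPM (6.32 to 10.1) and 95.6-fold lower (74.9 to 123), and Hes1 was 0.964 CPM (0.441 to 1.83) and 94.4-fold lower (46.7 to 216). These 3 gaps were the widest of the 8. Id1 was 25.8-fold lower (19.4 to 34.7), Id2 11.7-fold lower (10.2 to 13.5) and Hey1 9.81-fold lower (4.92 to 19.2). Hey2 had 3 UMIs in neuroblasts and was 57.5-fold lower (15.8 to 315), and Heyl, with 4 against 1, was not called, though with Seurat clusters it was called lower, and its ratio was 0.0515 with 1 more marker a gate, against 0.301. Id4 differed least of the 8, at 207 CPM (198 to 217) and 3.52-fold lower (3.18 to 3.88), and Hes6, at 102 CPM (95.2 to 108), was 1.59-fold (1.18 to 2.19) and not called. When every cell weighed the same, Hes6 passed the rule and was called higher. The Id2 ratio ran from 0.0419 with 1 more marker a gate to 0.149 with Seurat clusters, against 0.0851 here, and in those clusters the Hey2 and Id3 ratios were 0.0414 and 0.00722, while looser gates gave 0.0181 for Hes5.

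The E proteins again stood on the other side, with 2 of 3 higher in neuroblasts: Tcf4 went from 875 CPM in qNSCs to 1025 CPM and 1949 CPM in the aNSC sets, and the neuroblast ratio to qNSC was 2.83 (2.61 to 3.07) for Tcf4 and 2.19 (1.72 to 2.85) for Tcf12. Of the 4 Notch receptors 3 were lower and none higher, of the 7 Notch ligands 3 were lower and 1 higher, and of the 7 BMP receptors 3 were lower and 1 higher. Over the 10 Hes, Hey and Id genes the median log2 ratio was -4.12, against -0.27 over all genes. Scaling by median-of-ratios size factors moved the median of all genes by -0.28 for this comparison and by -0.30 for aNSC over qNSC, and no direction among the called genes turned. In neuroblasts this shift takes Tcf12 under 2-fold, while Tcf4 stays over it.

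Within the neuroblasts Id2 was higher in late than in early cells. Among noncycling neuroblasts, late ones (at least 2 of 5 late markers with a UMI, 641 cells) and early ones (962 cells) differed in 4 of the 10 genes, 2 higher and 2 lower in late cells, where 1.47% of all genes were called higher and 0.670% lower. Id2 was 103 CPM (91.3 to 115) in late and 20.4 CPM (16.3 to 25.2) in early neuroblasts, 5.03-fold (3.94 to 6.47). With 0, 1, 2 and 3 or more late markers the Id2 level was 27.0, 18.3, 84.1 and 166 CPM, while the median depth of these cells stayed between 4060.0 and 5074 UMIs. Id4 stood at 311, 201, 184 and 174 CPM over the same steps. Thus Id2 was highest where late markers were most numerous, and Id4 was highest in cells without one. The cells with 3 or more late markers also led in Neurod1, Tbr1 and Slc17a6. Whether the type of neuron changed along these steps was not tested.

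The other calls between late and early neuroblasts rested on few UMIs. Hes1 had 7 UMIs in late and 1 in early cells, 10.1-fold (1.30 to 456), and its ratio ran from 6.06 with Seurat clusters to 22.1 with 1 more marker a gate. Hes5 was 3.77 CPM against 8.77 CPM and Id1 was 1.72 CPM against 5.45 CPM. Each of these 3 calls was lost when called doublets were removed, with Seurat clusters and with 1 more marker a gate. The Hes5 and Id1 calls were also lost with looser gates (40% of a list and a lead of 10 points), where the Hes5 ratio was 1.98. The Id2 call held under all of these, with ratios from 4.01 to 6.29. In cycling neuroblasts Id1 was 20.9 CPM (15.3 to 27.9), above the early and late gates, and these cells were deeper, at a median of 8391 UMIs.

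Quiescent NSCs and astrocytes, which share most astroglial genes, differed in Id1, Id3 and Hey1 more than in Hes1 or Hes5. Of the 10 genes 2 were higher and 2 lower in the 176 qNSCs than in the 315 astrocytes, where 8.14% of all genes were called higher and 3.54% lower. Id1 was 205 CPM (173 to 241) against 74.3 CPM (60.9 to 89.8), 2.76-fold (2.13 to 3.57), and Id3 was 1169 CPM (1090.4 to 1252) against 470.3 CPM (436 to 507), 2.49-fold (2.24 to 2.76). Id4 was also higher in qNSCs, 729.5 CPM (668 to 795) against 388 CPM (356 to 421), but at 1.88-fold (1.67 to 2.13) stayed under the 2-fold rule, and Id2 went the other way at 0.777-fold (0.689 to 0.876). Hey1 was 24.2 CPM (14.1 to 38.7) in qNSCs and 63.9 CPM (51.5 to 78.4) in astrocytes, 2.64-fold lower (1.56 to 4.73), and Heyl had 1 UMI against 19. Hes5 and Hes1 did not differ by the rule, with ratios of 0.907 (0.818 to 1.0) and 0.740 (0.547 to 0.991). With Seurat clusters the ratio was 1.55 for Id3 and 0.564 for Hey1, and neither was called. The Heyl call was lost there too and with 1 more marker a gate, where its ratio was 0.720, and Hes6, at 1.96 (1.27 to 3.01) times and not called here, passed the rule under other settings, with ratios up to 3.19. Id4 passed it with 1 more marker a gate, at 2.46.

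The remaining brain classes each carried a part of the set. In the 159 OPCs Id2, which holds back oligodendrocyte maturation, stood at 139.7 CPM (116 to 167), against 5.92 CPM (1.22 to 17.3) in 71 mOLs. In the Seurat clusters of both classes Id2 was 87.8 and 14.8 CPM, a narrower gap. In gated mOLs Hes1 and Hey2 had no UMI (both 2.96 CPM in the clusters), and Id3 stood at 63.2 CPM (43.2 to 89.2). The 91 ependymal cells shared Id4 with the astroglia, at 395 CPM (347 to 447), and had Hey1 at 60.7 CPM (43.0 to 83.4), but Hes5 at 4.80 CPM (0.989 to 14.0), and at 11.9 CPM in their cluster. Microglia (34 cells) had no UMI of Hes5, of any Hey gene, of Id1 or of Id4, and had Id2 at 169.5 CPM (109 to 252), while the microglial cluster had Id4 at 24.1 CPM. Brain fibroblasts (61 cells) had Id3 at 1136 CPM (1028 to 1252), close to qNSCs and to lung myofibroblasts, from which they did not differ beyond counting error.

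In the vessel wall the Hey genes divided between the 2 cell layers and Id1, Id2 and Id3 were higher in endothelium than in mural cells or pericytes, in both organs. In the brain 4 of the 10 genes were higher and 2 lower in 303 endothelial than in 160 mural cells, where 9.39% of all genes were called higher and 10.8% lower. In the lung 5 were higher and 3 lower in 586 endothelial cells than in 2174 pericytes, where 11.5% were called higher and 10.5% lower. Heyl, the Hey gene of mural cells, was 456 CPM (395 to 524) in brain mural cells and 3.45 CPM (0.939 to 8.83) in brain endothelium, 132-fold lower (50.8 to 490.0). In the lung it was 324 CPM (314 to 335) in pericytes and 4.16 CPM (2.27 to 6.98) in endothelium, 77.9-fold lower (46.4 to 143). Hey1 ran the other way, although in the brain other classes held it too: astrocytes and ependymal cells stood at 63.9 and 60.7 CPM, and the astroglial gate held 45.9% of the library's Hey1 UMIs against 18.0% in endothelium. Hey1 was 429.6 CPM (408 to 452) in lung endothelium against 2.94 CPM (2.03 to 4.13) in pericytes, 146-fold (103 to 213), and 50.9 CPM (38.7 to 65.6) against 9.16 CPM (2.50 to 23.5) in the brain, 5.55-fold (2.06 to 21.0). Hey2 lay with mural cells in the brain, 156 CPM (121 to 197) against 1 UMI in endothelium, 181-fold lower (31.4 to 7242), and more weakly in the lung, 17.6 CPM (15.2 to 20.2) against 8.32 CPM (5.53 to 12), 2.11-fold lower (1.42 to 3.26). That lung call was lost without the upper limit on genes per cell, with Seurat clusters and when every cell weighed the same, and with Seurat clusters the Heyl ratio was 0.0373 in the lung in place of 0.0128 and 0.0162 in the brain in place of 0.00756. When every cell weighed the same the brain Hey2 ratio was 0.0141 in place of 0.00553.

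**Figure D3:**
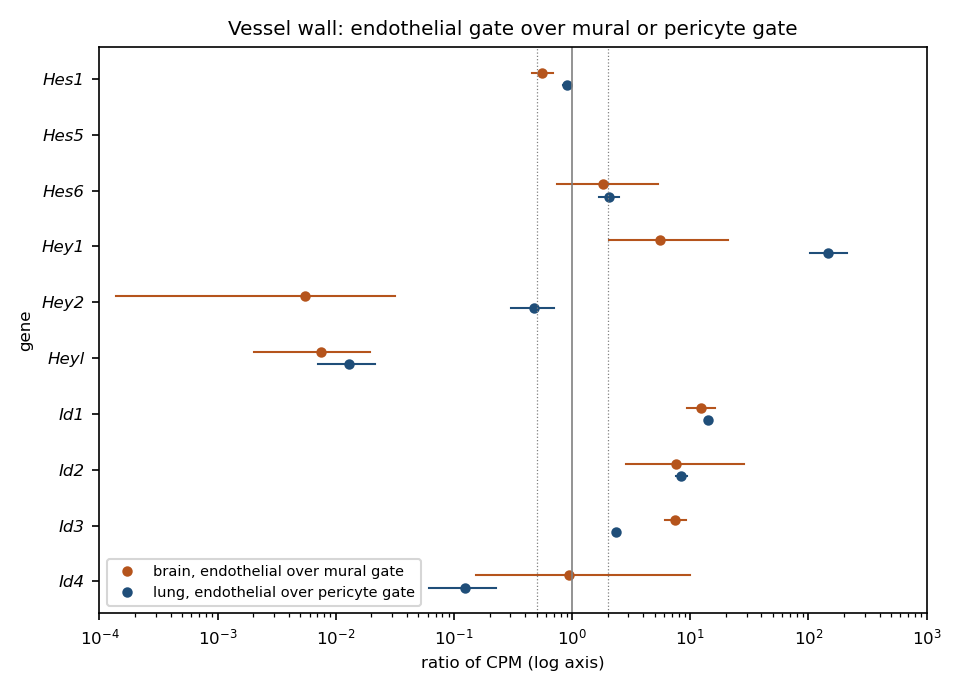
CPM ratio (log axis) of the endothelial gate over the mural gate of the brain library (orange) and over the pericyte gate of the lung library (blue) for each gene, with exact 95% intervals; dotted lines mark 2-fold in either direction, and pairs with 3 or fewer UMIs on both sides are left out. Hey1, Id1, Id2 and Id3 lie to the right of 1 in both organs, Hey2 and Heyl to the left.

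Id1 and Id3, targets of BMP receptor signalling, were at their highest in endothelium. Id1 was 1632 CPM (1559.8 to 1708) in brain and 1509.6 CPM (1468 to 1552) in lung endothelium, against 133 CPM (101 to 172) in mural cells and 107 CPM (101 to 113) in pericytes. The ratios were 12.3 (9.46 to 16.2) in the brain and 14.1 (13.2 to 15.0) in the lung. Id3 was 1776 CPM (1701 to 1855) and 1871 CPM (1825 to 1918) in the 2 endothelial gates. The Id3 ratio was 7.46 (6.12 to 9.17) in the brain and 2.37 (2.29 to 2.44) in the lung, where pericytes themselves held 791 CPM (775 to 808). Lung smooth muscle, which the gate does not split into vessel and airway cells, had Id2 at 392 CPM, not apart from lung endothelium beyond counting error. Id2 had similar ratios in both organs, 7.62 (2.86 to 28.6) and 8.43 (7.58 to 9.38), from levels that differed between them (69.8 and 363 CPM in endothelium). Hes1 did not pass the rule in either organ, at 0.559 (0.456 to 0.686) in the brain and 0.909 (0.838 to 0.984) in the lung. Hes6 was 2.05 (1.69 to 2.50) in the lung, a call that was lost at 1.97 when every cell weighed the same, and Id4 was 8.0-fold lower (4.41 to 16.2) in lung endothelium. In the brain Hes6 was called higher only with Seurat clusters, at 2.92. The dot plot of vessel wall ratios shows the 6 genes called in both organs on the same side of 1 in each.

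Genes of the Notch and BMP pathways also differed between the layers. Of the 6 Notch ligands with counts in the brain vessel gates 2 were higher in endothelium and none lower, Dll4 at 9.78 (3.71 to 36.6) and Jag2 at 24.8 (4.30 to 996) times the mural level. Of the 7 in the lung 4 were higher and 1 lower, with Dll4 at 373 CPM against 2.50 CPM. Of the 4 receptors 1 was higher and 2 lower in brain endothelium, and 2 higher and 2 lower in lung endothelium. Notch3 was 67.7-fold lower (39.0 to 128) in brain endothelium and 80.1-fold lower (54.2 to 124) in lung endothelium, standing at 758 CPM in mural cells and 595 CPM in pericytes. Notch4 was higher in endothelium in both, 2.02 (1.13 to 3.86) and 17.5 (14.2 to 21.7) times. For the other two the organs gave different calls, a difference that was not tested: Notch2 was 50.7-fold lower (33.4 to 81.0) in lung endothelium and not called in the brain, at 0.658 (0.344 to 1.30) times, and Notch1 was 2.44-fold lower (1.59 to 3.74) in brain endothelium and 2.85 (2.40 to 3.4) times as high in lung endothelium. Of the 7 BMP receptors 3 were higher and 1 lower in brain and 2 higher and 1 lower in lung endothelium. Acvrl1, the endothelial BMP receptor, was 417 CPM in brain and 495 CPM in lung endothelium, 14.0 (8.11 to 26.5) and 7.27 (6.67 to 7.93) times the mural and pericyte level, and Bmpr1a was 44.3-fold lower (14.3 to 222) and 17.8-fold lower (10.7 to 31.9). Of the 6 Smads 3 were higher in each organ and none lower, among them the inhibitory Smad6 and Smad7. The median log2 ratio over Hes, Hey and Id genes with more than 3 UMIs in a gate was 0.86 in brain and 1.04 in lung, and over all genes -0.07 and 0.02.

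Endothelium of the lung and of the brain differed in Hey1, Hey2, Hes6 and Id2, while Id1 and Id3 differed by less than 2-fold. Of the 10 genes 4 were higher in lung than in brain endothelium and none lower, where 7.82% of all genes were called higher and 8.49% lower. Hey1 was 8.45-fold (6.51 to 11.2) higher, Id2 5.20-fold (4.15 to 6.60) higher, Hey2 9.65-fold (1.6 to 395) higher from 1 brain UMI, and Hes6 2.01-fold (1.35 to 3.09) higher. The lung to brain ratio was 0.925 (0.877 to 0.975) for Id1, 1.05 (1.0 to 1.11) for Id3 and 1.12 (0.964 to 1.29) for Hes1. Heyl and Id4 were not called, with 14 and 11 lung UMIs against 4 and 5, and Hes5 had 3 UMIs in each. The Hes6 call was lost with Seurat clusters, with 1 more marker a gate and with median-of-ratios scaling, and the Hey2 ratio was 4.21 when every cell weighed the same. Of the 4 Notch ligands that could be compared 3 were higher in the lung, Dll1, Dll4 and Jag1, at 4.27 (1.74 to 13.6), 4.17 (3.41 to 5.14) and 2.89 (2.43 to 3.45) times. Smad6 and Smad7 were the 2 of 6 Smads called, both higher, at 10.9 (8.09 to 15.0) and 3.06 (2.73 to 3.44) times. No BMP receptor was called, and of the 4 Notch receptors 1 was higher and 1 lower. Tissue, library and depth (medians of 3798 and 5401 UMIs) cannot be told apart in any comparison between the organs.

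**Figure D4:**
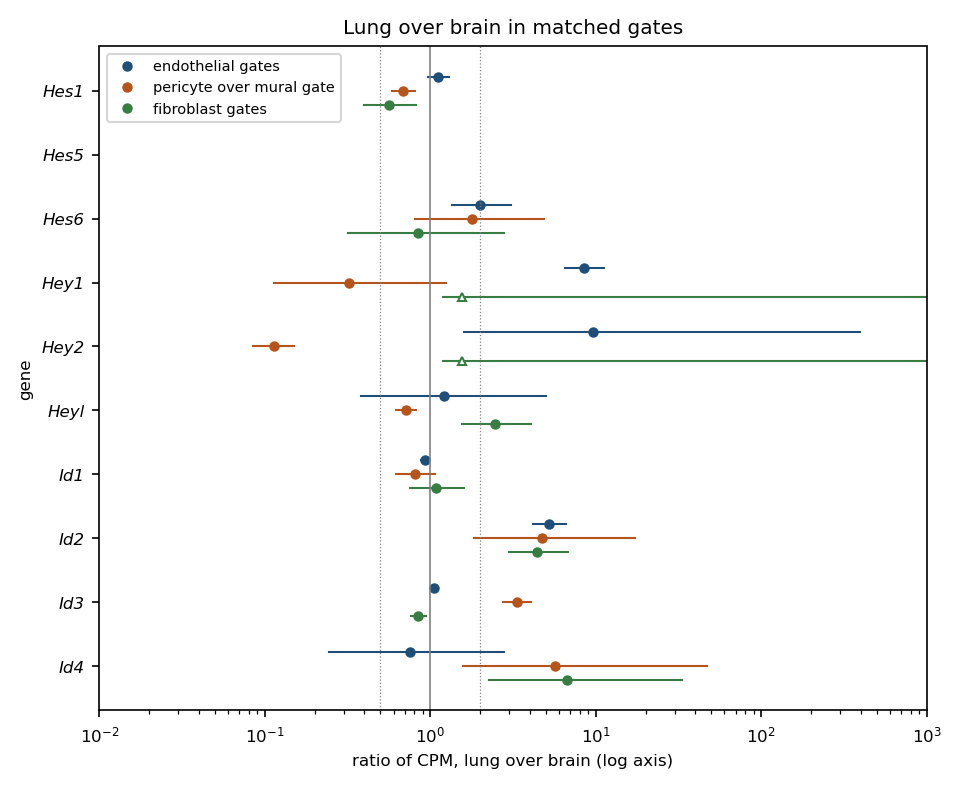
CPM ratio of lung over brain (log axis) for each gene in 3 matched pairs of gates: endothelial (blue), lung pericyte over brain mural (orange) and lung matrix fibroblast over brain fibroblast (green), with exact 95% intervals. Triangles are ratios with 0 brain UMIs set at 3, dotted lines mark 2-fold, and Id2 lies to the right of 2-fold in all 3 pairs.

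Id2 was the only one of the 10 genes called in the same direction in all 3 pairs of matched gates, as the plot of organ ratios shows. Lung pericytes had 3 of the 10 genes higher and 1 lower than brain mural cells, where 6.29% of all genes were called higher and 9.80% lower. Id2 was 43.1 CPM against 9.16 CPM, 4.70-fold (1.83 to 17.3), Id3 was 791 CPM against 238 CPM, 3.32-fold (2.74 to 4.07), and Id4 was 26.1 CPM against 4.58 CPM, 5.71-fold (1.57 to 47.3). With Seurat clusters the Id4 ratio was 1.62 and not called, while Hes6 was called higher at 2.83 and Hey1 lower at 0.291. Hey2 was 17.6 CPM against 156 CPM, 8.86-fold lower (6.63 to 11.7). Lung matrix fibroblasts had 3 genes higher than brain fibroblasts and none lower, where 6.34% of all genes were called higher and 9.48% lower. They were Heyl at 2.44-fold (1.56 to 4.06), Id2 at 4.44-fold (3.00 to 6.84) and Id4 at 6.75-fold (2.26 to 33.1), and the Id2 ratio was 7.66 when every cell weighed the same. Hes1, Hes6 and Id1 were not called, at 0.566 (0.398 to 0.820), 0.841 (0.319 to 2.80) and 1.08 (0.749 to 1.59) times, and Id1 ran from 0.658 without the upper limit on genes per cell to 1.62 when every cell weighed the same. Hey1 and Hey2 each had 30 UMIs against none and were not called, though Hey2 was with Seurat clusters, and the Hey1 ratio was 5.35 without the upper limit, and Hes5 had 2 brain UMIs. Id3 differed little between the fibroblasts, 960.0 CPM and 1136 CPM.

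Within endothelium Hey1 and Id2 varied with the number of arterial genes. The endothelial cells were put in 4 bins by how many of 9 arterial markers, among them Gja5, Sox17, Efnb2 and Cxcl12, had a UMI: 0 to 3, 4 to 5, 6 to 7 and 8 to 9 in the lung, and 0, 1, 2 and 3 or more in the brain. In the lung Hey1 was 64.1, 270.3, 567 and 481 CPM from the first bin to the last. In the brain it was 0, 22.6, 30.0 and 152 CPM, with the first bin holding 34 cells and no UMI of Hey1. The lung had its lowest Hey1 level in the first bin, whereas in the brain's first bin 3 UMIs would have been 31.1 CPM, so it is not placed below the next bins. Id2 was 80.1, 203, 419 and 577 CPM in the lung bins, and 51.9, 48.1, 79.3 and 90.1 CPM in the brain bins, where the intervals overlap. Id1 ran from 892 to 1833 CPM in the lung, and Hes1 from 269.6 down to 184 CPM. Median depth in the lung was 4904, 4867, 5508 and 6138 UMIs. In the brain it was 2508, 3509, 3855 and 4006 UMIs. The part of depth in the levels of any bin was not tested in either organ.

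**Figure D5:**
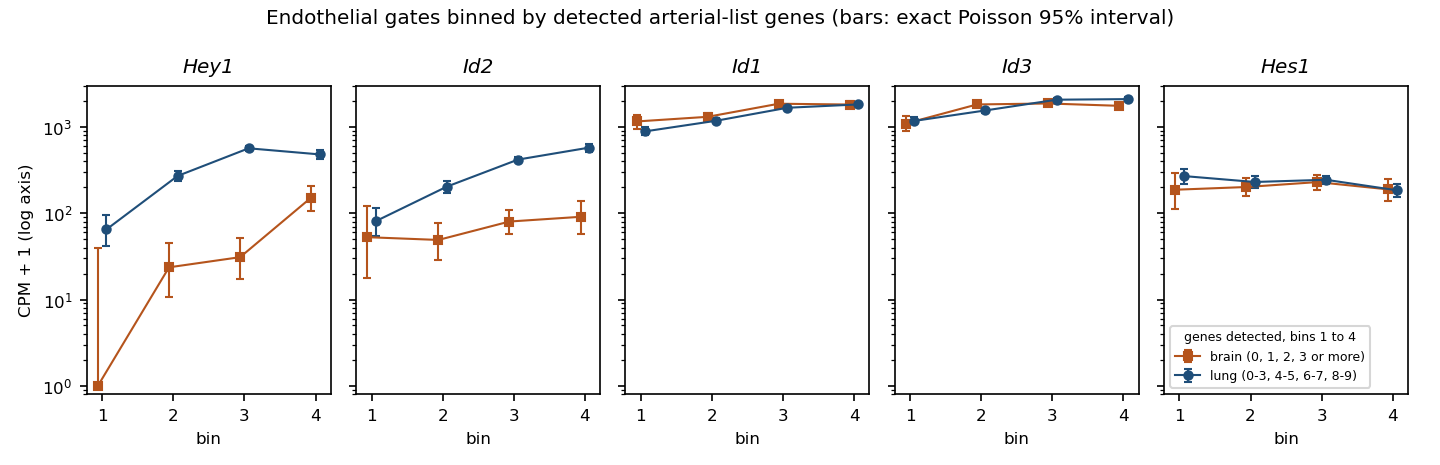
Levels (CPM + 1, log axis) of Hey1, Id2, Id1, Id3 and Hes1 in endothelial cells binned by the number of arterial genes detected (bins 1 to 4), with exact Poisson 95% intervals, for the brain (orange squares) and the lung (blue circles). Lung Hey1 runs from 64.1 CPM in bin 1 to 481 CPM in bin 4, while Hes1 stays between 184 and 270 CPM in the lung.

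Lung endothelial cells with 6 or more arterial genes (373 cells) had 2 of the 10 genes higher than those with 3 or fewer (72 cells) and none lower, where 3.32% of all genes were called higher and 4.65% lower. Hey1 was 543 CPM (513 to 575) against 64.1 CPM (41.1 to 95.3), 8.48-fold (5.67 to 13.3), and Id2 was 463 CPM (435 to 492) against 80.1 CPM (54.0 to 114), 5.78-fold (4.03 to 8.61). Both calls held under every alternative run. Id1, Id3 and Hes1 stayed under 2-fold, at 1.93 (1.72 to 2.16), 1.77 (1.61 to 1.96) and 0.843 (0.680 to 1.05), but Id1 was called higher with Seurat clusters and with 1 more marker a gate, where its ratio was 2.02. Of the 6 Notch ligands with counts 2 were higher in the same cells and none lower, Dll4 at 2.87 (2.19 to 3.81) and Jag1 at 4.54 (3.30 to 6.42) times. Of the 4 Notch receptors 1 was higher, Notch1 at 2.49 (1.39 to 4.90) times, and 1 lower, Notch3, 3.69-fold lower (1.33 to 9.61). Of the 6 Smads 2 were higher and 2 lower. The inhibitory Smad6 and Smad7 stood at 3.14 (2.41 to 4.16) and 3.00 (2.50 to 3.62) times, and the BMP-responsive Smad1 and Smad5 were 2.38-fold lower (1.64 to 3.4) and 2.18-fold lower (1.41 to 3.30). No BMP receptor was called, and of the 8 BMP ligands only Bmp2, which was lower, with 5 UMIs on each side. The cells with many arterial genes also led in Vwf, which is on the venous list, and the cells with few led in the capillary genes Gpihbp1 and Kdr.

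The mesenchymal classes of the lung shared Id3 and differed in Heyl, Id2 and Id4. Id3 lay between 791 CPM in pericytes and 1125 CPM in myofibroblasts. Heyl was 324 CPM (314 to 335) in pericytes, 137 CPM (115 to 162) in smooth muscle, 136 CPM (122 to 152) in matrix fibroblasts and 30.7 CPM (21.9 to 41.8) in myofibroblasts. Smooth muscle and matrix fibroblasts did not differ beyond counting error, whereas pericytes stood above and myofibroblasts below both. Id2 was lowest in pericytes, at 43.1 CPM (39.3 to 47.1), against 462 CPM (426 to 501) in myofibroblasts, 392 CPM (354 to 433) in smooth muscle and 322 CPM (299 to 346) in matrix fibroblasts. Many cells of these 3 gates lay within 10 percentage points of a gate threshold, 59.0% of myofibroblasts, 51.6% of smooth muscle and 76.4% of matrix fibroblasts, against 12.6% of pericytes. No Seurat cluster matched myofibroblasts, and in the smooth muscle, matrix fibroblast and pericyte clusters Id2 was 559, 333 and 38.1 CPM. Id4 was 137 CPM (115 to 162) in smooth muscle, 92.8 CPM (77.0 to 111) in myofibroblasts, 56.5 CPM (47.2 to 67.1) in matrix fibroblasts and 26.1 CPM (23.2 to 29.3) in pericytes, each step beyond counting error. Among pericytes, 128 cycling cells had 1 gene lower and none higher than 2046 others, where 2.56% of all genes were called lower and 5.26% higher. That gene was Heyl, at 162 CPM (136 to 192) against 337 CPM (326 to 348), 2.08-fold lower (1.75 to 2.49). The call was lost without the upper limit on genes per cell and with Seurat clusters, where the ratio was 0.757. The other genes with counts ran from 0.523 (0.312 to 0.826) times for Id2 to 2.28 (0.688 to 5.98) times for Hey1, and Hes5 had no UMI. Neither direction was stable: Hey1 was called higher with Seurat clusters and stood at 1.07 with 1 more marker a gate, and Id2 was called lower under 20% mitochondrial counts and stood at 1.22 with Seurat clusters.

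The lung neural gate, 29 cells that led in Gfra3, Foxd3 and Sox10, had little of the Hes and Id profile of brain stem cells. Against qNSCs 2 of the 10 genes were higher and 6 lower, where 9.24% of all genes were called higher and 7.22% lower. Hes5 had no UMI against 768 CPM in qNSCs, 41.6-fold lower when the lung neural gate is set at 3 UMIs (exact lower limit 33.7). Id4 had 1 UMI, at 6.15 CPM (0.156 to 34.3), with Id2 at 30.8 CPM (9.99 to 71.8) and Id3 at 320.0 CPM (239 to 419.6), against qNSC levels of 729.5, 536 and 1169 CPM. The gate held instead Hes1 at 375 CPM (287 to 482), 4.12-fold (2.86 to 5.95), and Heyl at 86.1 CPM (47.1 to 145), 60.6-fold (9.22 to 2561) from 1 qNSC UMI. Hes6 and Id1 were also lower, at 10.4-fold lower (1.77 to 419.8) and 6.66-fold lower (2.79 to 20.8), and Hey1 and Hey2 were not called. With 1 more marker a gate the Heyl ratio was 11.0, looser gates gave 0.183 for Hes6, and Seurat clusters 0.0166 for Id4. Hes1 and Heyl were also high in the pericytes of the same library (256 and 324 CPM), whose part in these levels was not tested.

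Against OPCs, the brain class that shares Sox10 with these cells, 3 genes were higher and 3 lower, where 7.11% of all genes were called higher and 8.89% lower. Hes1 was 13.1-fold (8.11 to 21.8), Id3 12.1-fold (7.30 to 20.8) and Heyl 25.1-fold (7.0 to 136) higher. Hes6 was 8.56-fold lower (1.46 to 345) and Id2 4.54-fold lower (1.89 to 14.2). Hes5, with no UMI in the lung neural gate, was 3.66-fold lower when that gate is set at 3 UMIs (exact lower limit 2.88). The Heyl ratio ran from 5.05 without the upper limit on genes per cell to 77.9 with 1 more marker a gate, and the Hes1 ratio reached 21.9 with Seurat clusters. The Hes6 ratio was 0.235 with looser gates, and the Hes5 ratio at that floor was 0.419 without the upper limit on genes per cell. Of the 7 BMP receptors 3 were higher and 1 lower than in qNSCs, and 3 higher and none lower than in OPCs. Those higher were the same in both, Acvrl1 (6 UMIs in the lung neural gate) and the coreceptors Eng (31 UMIs) and Tgfbr3 (36 UMIs). Bmpr1b, with no UMI, was the one lower, 4.62-fold when the lung neural gate is set at 3 UMIs. Olig1 and Olig2 had no UMI in the lung neural gate.

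The 91 T cells of the lung library, which led in Rag1 and Cd8b1 beside T cell receptor genes, had Hes6 at 133 CPM (91.8 to 185) and Id3, an Id gene of thymocyte development, at 176 CPM (128 to 235). Id2 was 62.4 CPM (35.7 to 101). Hey1, Hey2 and Id4 had no UMI in them. In the Seurat cluster of T cells (122 cells) Id2 stood at 139.7 CPM, Hes1 at 41.7 against 15.6 CPM, Id1 at 44.1 against 11.7 CPM and Id4 at 4.90 CPM. The median depth of the gated T cells was 1870.0 UMIs, the lowest of the lung gates named here.

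The shares of cells with a UMI were counted for some of these genes. Every cell was thinned to 1000 UMIs, and cells with fewer were left out (21 astroglial, 5 brain endothelial and 22 neuroblast cells, 4 qNSCs, 10 pericytes, 1 mural and 1 lung endothelial cell). After thinning, 39.6% (36.1 to 43.2) of astroglial cells had a Hes5 UMI, against 0.336% of brain endothelial cells, which should lack it, and 0.539% of neuroblasts. Without thinning the shares were 63.8%, 0.990% and 2.93%, at median depths of 3814, 3798 and 4471 UMIs. The thinned shares of neuroblasts, 0.539% (0.259 to 0.989), and of endothelium, 0.336% (0.00850 to 1.86), overlap in their intervals, so Hes5 in neuroblasts was not separable from background by cell shares, while its level per UMI was 8.04 CPM against 2.59 CPM (0.533 to 7.56). Hes6 was found in 25.5% (18.6 to 33.4) of aNSCs after thinning and in 76.6% before, against 4.07% (1.65 to 8.21) and 17.6% of qNSCs, and in 1.26% and 3.12% of brain mural cells (median 2582 UMIs). For Id4 the thinned and unthinned shares of qNSCs were 52.3% and 81.2%. It was found in 17.8% (16.1 to 19.7) of neuroblasts after thinning and 47.6% before, against 0.336% and 1.65% of brain endothelial cells. Id4 in neuroblasts therefore stood above the share of endothelium at the same depth.

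In the vessel wall Heyl was found in 35.8% (28.4 to 43.8) of brain mural cells and 26.8% (25.0 to 28.8) of lung pericytes after thinning, against 0.336% and 0.342% of the endothelial cells. Unthinned, the shares were 62.5% and 68.4% against 1.32% and 2.22%, and the median depths of the 2 lung gates were 5245 and 5401 UMIs. Hey1 was found in 32.0% (28.2 to 35.9) of lung endothelial cells and 0.231% of pericytes after thinning, and in 71.3% and 1.52% before. Each of these genes was thus found in many thinned cells of one layer and in few of the other. Id1 and Id3 were found together in 91.6% of lung and 83.8% of brain endothelial cells, and in 60.2% and 54.0% after thinning. Over the 21 gates, 55 gene and gate pairs had a UMI in at least 10% of thinned cells.

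The genes most like each member were found by Pearson's r of log2(CPM + 10) over the 21 gates, among 9611 genes with at least 50 CPM in a gate. The gates share libraries and differ in depth, so these r are descriptions. Nearest to Hes5 were Nr2e1 (r = 0.968), Dbx2 (r = 0.966) and Ntsr2 (r = 0.965). Nearest to Heyl were Naalad2 (r = 0.966), Vasn (r = 0.940) and Rem1 (r = 0.935), and to Id3 Cpt1a (r = 0.898), Wwtr1 (r = 0.894) and Lamb2 (r = 0.886). For Hey1 they were Bcl6b (r = 0.831), Avpi1 (r = 0.829) and Ankrd33b (r = 0.812), for Hes6 Riok2 (r = 0.904), Lzts1 (r = 0.864) and Hnrnpu (r = 0.859) and for Id2 Cables1 (r = 0.805), Htra1 (r = 0.752) and Arrb1 (r = 0.732), with the r of Id2 the lowest of the 10. The lists were Gm26532 (r = 0.914), Aldh2 (r = 0.905) and Rhbdf1 (r = 0.892) for Hes1, Ano1 (r = 0.848), Plce1 (r = 0.845) and Dmd (r = 0.835) for Hey2, Fam101b (r = 0.865), Luzp1 (r = 0.863) and Hmg20b (r = 0.862) for Id1 and Kcnn2 (r = 0.865), Rcn2 (r = 0.860) and Msi1 (r = 0.848) for Id4. Within the set, Id1 and Id3 were the most alike pair (r = 0.83), followed by Hes1 and Id3 (r = 0.81), and Hes1 and Hes6 the most unlike (r = -0.64).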

How the data were processed

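Single Nes-GFP+ cells of brain and lung were captured with the 10x Chromium 3′ kit. The authors' deposited tables hold UMI counts per gene and cell barcode, made per the labels with bcl2fastq 2.19.1.403, UMI-tools 1.0.0, STAR 2.7.1a and featureCounts 1.6.4 on mm10. The annotation, the strand setting and how barcodes were selected are not given in the sources used here. The tables held 4640 (brain) and 5981 (lung) barcodes, the same numbers of cells as the study states, with 26221173 and 36816962 UMIs in 23906 and 23156 genes. The study's own limits on cells (over 200 and under 4000 genes, under 40% mitochondrial counts) left 4151 and 5608 of them. Doublets were called with Scrublet in scanpy 1.11.5 and kept.

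Counts were summed over the cells of a gate. Levels have exact Poisson intervals and ratios exact conditional binomial intervals, both at 95% (scipy 1.17.1, Python 3.11.15), and shares of cells exact Clopper-Pearson intervals. UMIs of 1 library are not independent animals, so all intervals cover counting error only. Where a gate had no UMI, its count was set at a floor of 3 UMIs for the ratio, which is then a point value and not an exact limit. Each call was made for all genes with a count in either gate, which gives the share of all genes called beside each count. Marker lists held 209 genes, of which 6 list entries had no count. The NSC subsets needed at least 2 of 4 subset markers and more of them than of the other subset's markers. In all 14 comparisons were made, 9 of them planned and 5 added after the data were seen. The alternatives were the 2 barcode filters, doublet removal, classes from Seurat 5.3.0 clusters built without the 10 genes and the pathway genes, 1 more marker in every gate, looser gates (added after seeing the data), 2 other scalings, the mean of per-cell CPM, a minimum of 10 counts, and other thinning. Scripts were tested on simulated data.

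All 10 genes were compared in every comparison and every one called is given, and from the 71 genes of 10 pathway lists (Notch, BMP, E protein, bHLH and corepressor genes) the counts called, with the Notch ligands and receptors, BMP receptors, Smads, E proteins and some bHLH activators named where useful. Some listed genes are not reported here. The members, lists and comparisons were chosen with earlier results of these data known. Coordinates come from the GENCODE annotation of GRCm38, and start site windows from RefSeq.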

Additional observations from a re-analysis of the deposited data

Results flagged for a closer look

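The ratio read here is the endothelial gate over the mural gate (brain) or pericyte gate (lung). None of the Hes, Hey or Id genes stood on opposite sides of 1 in brain and lung with both intervals leaving out 1. Of the 71 listed pathway genes, not all of which had counts here, 6 did. The share of all genes that did so is not given, so the count of 6 is not read as a result. This listing did not ask for a 2-fold ratio: Maml2 and Tcf4 passed 2-fold in neither organ, Jag1 not in the brain and Tle4 not in the lung. Jag1, a Notch ligand, was at 0.520 in the brain and 7.93 in the lung. Notch1 was at 0.410 in the brain and 2.85 in the lung. Nrarp, a target and inhibitor of Notch signalling, was at 0.366 in the brain and 2.85 in the lung. Maml2, a Notch coactivator, was at 0.582 in the brain and 1.51 in the lung. Tcf4, an E protein, was at 0.827 in the brain and 1.44 in the lung. Tle4, a Groucho corepressor that Hes proteins recruit, ran the other way, at 4.14 in the brain and 0.568 in the lung. The difference between the organs was not tested, since each organ had 1 library.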

How the results depend on the processing

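With 1 library a tissue, nothing here measures the spread between mice. No paired analysis was possible because each tissue had 1 library and no replicate numbers. Of 1353 single-gene ratios recomputed, 1285 kept their direction and call or stayed close, 66 moved and 2 called ratios reversed, and of 288 counts or summaries 270 stayed within 1.5 times. The 2 reversals of called ratios were in late over early neuroblasts: Id1 at 1.04 with Seurat clusters and Hes5 at 1.98 with looser gates. In that comparison the genes called higher fell from 2 to 1 with doublets removed, with Seurat clusters, with 1 more marker a gate and with a minimum of 10 counts, and those called lower from 2 to 0 with doublets removed, Seurat clusters, 1 more marker or looser gates. For cycling over other pericytes, 0 genes were lower without an upper limit of genes per cell, 2 under 20% mitochondrial counts, and 0 with Seurat clusters, where 1 was higher. For qNSC over astrocyte, 0 were lower with Seurat clusters, and 4 were higher and 1 lower with 1 more marker. For lung pericyte over brain mural 2 were lower with Seurat clusters. For neuroblast over qNSC 1 was higher by the mean of per-cell CPM. Without thinning, 107 gene and gate pairs reached 10% of cells, against 55 at 1000 UMIs. The few against many neuroblast marker comparison was not run with Seurat clusters, since both aNSC clusters matched the set with many such markers and none the set with few. The causes were not tested, except that thinning removes UMIs by its construction.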
